A study of Mus musculus with 6 samples.

Results

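The genes described here are 8 mouse genes for MHC class II proteins and their helpers (H2-Aa, H2-Ab1, H2-Eb1, H2-DMa, H2-DMb1, H2-DMb2, H2-Oa and H2-Ob), Cd74 and Ciita. They were chosen by name, as 10 of 21900 protein-coding genes, and each was taken with 10 kb on either side of its body. Open chromatin was measured in aliquots of 50000 blood monocytes by ATAC-seq. The assay uses Tn5, an enzyme that cuts DNA and adds adapters where nucleosomes leave it exposed. The DTR group holds 3 libraries from thrombocytopenic mice of the PF4cre-iDTR genotype given diphtheria toxin. In such mice Cre is expressed from the Pf4 promoter, active in megakaryocytes, and switches on the toxin's receptor. The WT group holds 3 libraries from wild-type control mice that also received the toxin. The sources used here do not give age, sex, toxin dose or pooling of mice, nor say that libraries came from separate mice, so p-values measure only the spread between these libraries, which may be technical. The question is whether loss of platelets goes with other open chromatin at the genes by which monocytes present antigen to CD4+ T cells.

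MHC class II molecules are pairs of an alpha and a beta chain that carry peptides from endosomes to the cell surface. The invariant chain, Cd74, holds the peptide groove until H2-DM exchanges its last fragment for a peptide, and H2-DO restrains H2-DM. Ciita encodes the coactivator of the whole set: it binds no DNA itself and is recruited by factors on the X and Y boxes of class II promoters. Ciita is read from several alternative promoters that differ between dendritic cells, B cells and cells exposed to interferon gamma.

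The promoter windows are shown first because the X and Y boxes lie under shared peaks at some members and outside every peak at others. RefSeq promoter windows of the GRCm38.p6 build, 250 bases before to 50 after a gene's start, were held for 7 members, with 8 windows in all. The Y box, written ATTGG on either strand, was in 7 of the 8 windows and in 37.4% of all 32851 windows. The X box consensus, on either strand, was in 3 of 8 (H2-DMa, H2-DMb1 and H2-Ob) and in 3.94% of all. A narrower X box core, AAC, any pair of bases and then ATGATG (both strands), was written after the sequences were seen, so its match to these genes is by choice. It was in 4 of 8 windows and in 0.137% of all, and in those 4 a Y box followed 17 to 20 bases after it. Matches of the X box consensus and of its core can overlap. The stretches of 61 bases below are written along the gene's strand. Capitals mark the Y box, the X box core and, in H2-Aa, the letters TGACGTCA, which were also chosen after reading the sequence and occur in 1.79% of all windows (both strands). They lie at chr17:34145111-34145171 (H2-DMb2, plus strand), chr17:34153082-34153142 (H2-DMb1, plus), chr17:34238800-34238860 (H2-Ob, plus), chr17:34305760-34305820 (H2-Eb1, plus), chr17:34287859-34287919 (H2-Aa, minus) and chr17:34092288-34092348 (H2-Oa, plus).
H2-DMb2: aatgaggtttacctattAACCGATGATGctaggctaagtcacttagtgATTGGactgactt
H2-DMb1: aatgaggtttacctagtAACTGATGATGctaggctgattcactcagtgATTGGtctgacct
H2-Ob: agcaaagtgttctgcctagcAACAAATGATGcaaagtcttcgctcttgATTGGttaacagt
H2-Eb1: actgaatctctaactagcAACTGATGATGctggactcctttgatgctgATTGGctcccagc
H2-Aa: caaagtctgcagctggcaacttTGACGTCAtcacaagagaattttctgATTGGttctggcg
H2-Oa: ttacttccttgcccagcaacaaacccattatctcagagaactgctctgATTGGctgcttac

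Stretches with a Y box lay under peaks at some members and outside them at others. The stretches of H2-DMb1, H2-Aa and H2-Eb1 lay wholly under a peak in all 6 libraries. The H2-Ob stretch lay wholly under a peak in 5 libraries, and 0 of its 61 bases did in WT 3. The stretches of H2-DMb2 and H2-Oa lay under no peak in any library. Nor did a stretch of H2-DMa around its Y box (34125272 to 34125332), which is not printed. The H2-Oa and H2-DMa stretches hold the Y box without the X box core. A region with a peak in all 6 libraries (34092492 to 34093682) begins shortly after the end of the H2-Oa stretch. H2-DMb1 and H2-DMb2, neighbouring genes for DM beta chains, had 54 of these 61 bases (88.5%) in common, and the first stretch was inside a peak and the second was not. The H2-DMa windows are those of starts 3139 and 5825 bp inside its body, and its X box consensus and Y box were in different windows. The H2-DMb2 window is that of a start 2020 bp inside the gene body used here. The outer end of that body lies in a region (34142572 to 34143752) with a peak in all 6 libraries. A match of letters is a description and not a bound site.

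Each library came with its own list of broad peaks and no read counts, so depth is unknown. The DTR lists held 81567 to 84029 peaks and the WT lists 77867 to 80475, a ratio of means of 1.05. Every DTR list was longer than every WT list, so a small excess in DTR is the general state of these lists. Peaks of all lists that overlapped or touched were merged to 92757 regions, of which 68712 (74.1%) had a peak in all 6 libraries. As a check of cell type, 7 of 7 classical and 6 of 6 non-classical monocyte markers had a peak within 1 kb in all libraries. So did 8 of 8 dendritic cell and 6 of 7 B cell markers, cells which also carry class II, 6 of 7 macrophage, 4 of 7 T and NK cell, 3 of 6 neutrophil and 4 of 6 megakaryocyte and platelet markers. Timd4, Cd8a, Ncr1, Elane and Ppbp had no peak in any library. In such bulk samples, fewer cells of a type and less open chromatin per cell cannot be told apart.

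At the 10 loci together, DTR and WT libraries had much the same peaks. None of 4 summary measures separated the groups with 10 kb on either side. Over the gene bodies alone, peaks, covered length and median fold did (exact permutation p = 0.1 each), and median width did not. Windows of neighbouring genes overlap, so the 10 loci form 5 separate stretches of 281 kb in all, and each peak was counted once there. They held 55, 54 and 55 peaks in the DTR libraries and 51, 51 and 54 in the WT libraries. WT 3 equalled the lowest DTR library, so the groups touched. The difference was 2.67 peaks (54.7 ± 0.577 against 52.0 ± 1.73, SD, n = 3 each; two-sided exact permutation p = 0.2). The smallest p this design can give is 0.1. The ratio of means, 1.05, was that of the whole lists.

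Peaks covered 39065, 40837 and 43273 bp of these loci in DTR and 41192, 37210 and 40052 bp in WT. The libraries of both groups were interleaved, and WT 1 lay above DTR 1 and DTR 2. The means were 41058 ± 2113 and 39485 ± 2051 bp (SD, n = 3; exact permutation p = 0.5). The median peak width was 463, 484 and 501 bp in DTR and 477, 467 and 461 bp in WT (exact permutation p = 0.3). The median fold enrichment, which is the authors' value for a peak over the caller's background, was 3.99, 4.15 and 3.77 in DTR and 3.95, 4.23 and 4.18 in WT (exact permutation p = 0.4). In width and in fold the values of both groups overlapped.

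**Figure D1:**
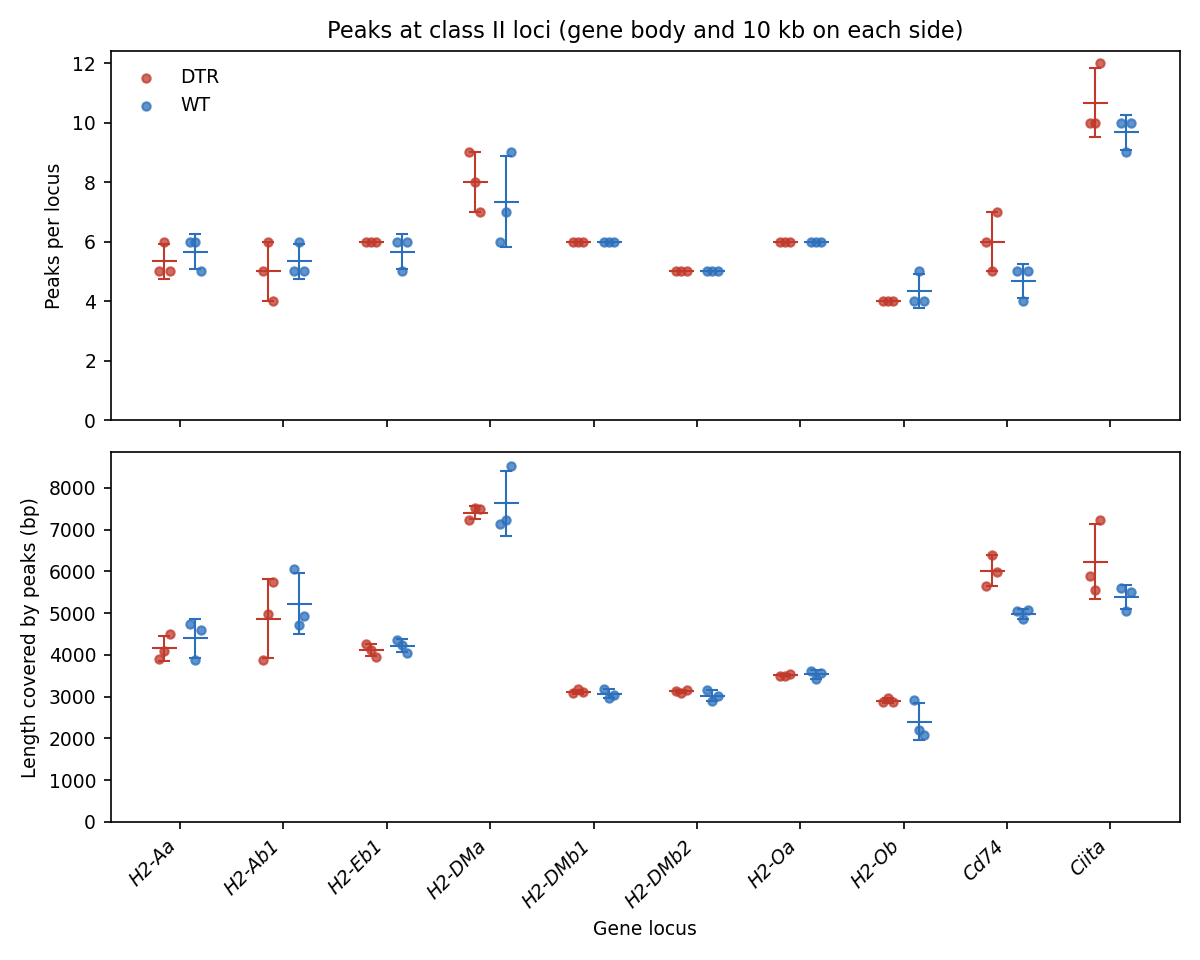
Peaks (upper panel) and base pairs covered by peaks (lower panel) in each gene body with 10 kb on either side, for 3 DTR (red) and 3 WT (blue) libraries. Points are libraries, and bars give the mean and SD. At Cd74 the covered length of each DTR library (5659 to 6397 bp) lies above that of each WT library (4853 to 5078 bp), while at the other loci the groups overlap.

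The loci held 58 regions, of which 47 (against 74.1% of all regions) had a peak in every library, and 7 belonged to more than 1 locus. Of the 58, 29 overlapped the body of a member. On average over the libraries, peaks covered a median of 14.5% of a member locus, from 8.17% at Ciita to 19.3% at H2-Ab1, against a median of 5.19% over the 16831 protein-coding genes with a peak. The 47 shared regions had a median width of 680 bp, close to the 659 bp of all shared regions. Their lowest fold over the libraries had a median of 4.02, against 5.14 for all shared regions. The loci were thus densely covered by peaks of moderate fold.

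Among the genes for the chains of surface class II molecules, peaks were as many in WT as in DTR libraries. H2-Aa, the alpha chain of I-A, had 5, 6 and 5 peaks in DTR and 6, 6 and 5 in WT. They covered 3898, 4086 and 4493 bp in DTR and 4742, 3873 and 4588 bp in WT, with both groups interleaved. Its promoter region (chromosome 17, 34286605 to 34288231), which holds the printed stretch, had a fold of 4.11, 4.12 and 3.77 in DTR and 3.53, 3.81 and 3.98 in WT. DTR 3 lay below WT 2 and WT 3 there. H2-Ab1, its beta chain partner, had 5, 6 and 4 peaks in DTR and 5, 6 and 5 in WT, covering 3883, 4970 and 5755 bp against 6055, 4707 and 4921 bp, and WT 1 and DTR 1 were the extremes. That spread came mostly from a weak stretch beyond the gene (34269907 to 34272400), which was 1 long peak in DTR 3 and WT 1 and 2 shorter ones in the other 4 libraries. The region over the lower-coordinate end of H2-Ab1 (34262924 to 34265236) covered 2205, 2214 and 2228 bp in DTR and 2300, 2165 and 2253 bp in WT. The most open region of H2-Ab1 (34257396 to 34258162), 5064 bp from its body, had folds of 7.27, 7.54 and 7.28 in DTR and 6.65, 7.13 and 7.23 in WT. All DTR values were higher, by 0.073 ± 0.059 (log2, SE; limma, adjusted p = 0.740). A weaker neighbour (34261455 to 34261926) went the other way, at −0.084 ± 0.074.

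H2-Eb1, the beta chain of I-E, had 6 peaks in every library but WT 2, which had 5. They covered 4264, 4126 and 3957 bp in DTR and 4350, 4249 and 4044 bp in WT. Its highest fold (34325002 to 34325699) was 9.48, 10.3 and 9.19 in DTR and 9.04, 9.25 and 8.81 in WT. That region reaches into the neighbouring gene H2-Eb2, and DTR 3 lay below WT 2. The most open region between H2-Aa and H2-Eb1 (34295860 to 34296654), in the windows of both, had folds of 5.27, 5.05 and 5.66 in DTR and 4.70, 5.59 and 4.98 in WT. In limma fits of log2 covered length plus 100 bp over 16831 genes, DTR minus WT was −0.08 ± 0.10 (SE) for H2-Aa, −0.11 ± 0.17 for H2-Ab1 and −0.033 ± 0.049 for H2-Eb1 (Benjamini-Hochberg adjusted p = 0.728, 0.781 and 0.768). All 3 values were negative, each within about 1 SE of zero.

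Counted by peaks, 0 of 10 members had all DTR libraries above all WT libraries, against 2.99% of genes, and 0 had them below, against 0.345%. For the median fold and the median width of a gene's peaks, 1 member each stood apart. The median fold at H2-Ab1 was 3.40, 3.46 and 3.29 in DTR and 3.04, 3.07 and 3.20 in WT, so that all DTR values lay above all WT values (exact permutation p = 0.1), as they did at 7.86% of 16247 genes (DTR below WT: 0 members, against 5.86%). The median width at Ciita was 454, 448 and 476.5 bp in DTR and 415, 417 and 442 bp in WT, again without overlap (exact permutation p = 0.1), as at 10.7% of genes (DTR below WT: 0 members, against 2.78%). With 10 members, 1 such gene is near that background.

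Of the peptide-loading genes, H2-DMb1 and H2-DMb2 had 6 and 5 peaks in every library. The covered length at H2-DMb1 was 3076, 3173 and 3110 bp in DTR and 3186, 2979 and 3038 bp in WT, and at H2-DMb2 3132, 3098 and 3163 bp in DTR and 3166, 2902 and 3009 bp in WT. The groups overlapped at both. These loci share 4 regions, among them that on the H2-DMb1 promoter (34152750 to 34153681), with folds of 6.95, 7.11 and 6.91 in DTR and 6.81, 7.35 and 7.17 in WT. A second shared region lies on the lower-coordinate end of H2-DMb2 (34142572 to 34143752). It covered 1169, 1171 and 1179 bp in DTR and 1126, 1140 and 1130 bp in WT, without overlap, but by a small margin (log2 difference 0.051 ± 0.028 SE, limma, adjusted p = 0.709).

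H2-DMa, the alpha chain of DM, had 9, 8 and 7 peaks in DTR and 6, 7 and 9 in WT. They covered 7232, 7509 and 7489 bp in DTR and 7141, 7230 and 8521 bp in WT, with WT 3 highest. The longest part was a region of 4005 bp (34118864 to 34122868) that also overlaps Brd2, a bromodomain gene, so it cannot be given to H2-DMa alone. The most open region of the locus (34135308 to 34136035), inside the H2-DMa body, had folds of 8.79, 9.93 and 8.70 in DTR and 9.05, 10.3 and 9.94 in WT. H2-DMa also held the lowest difference in fold of all shared member regions (34129222 to 34130344), with folds of 2.49, 2.71 and 2.87 in DTR and 2.97, 2.95 and 2.99 in WT. Each DTR value lay below each WT value there, at −0.15 ± 0.067 (log2, SE; limma, adjusted p = 0.503).

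H2-Oa and H2-Ob encode the chains of H2-DO. H2-Oa had 6 peaks in every library, and they covered 3502, 3490 and 3537 bp in DTR and 3607, 3419 and 3567 bp in WT. Its most open region (34101439 to 34102251) had folds of 9.39, 9.81 and 9.56 in DTR and 9.25, 9.99 and 10.6 in WT, and lay 6204 bp from the gene body. H2-Ob had 4 peaks in each library but WT 2, which had 5, covering 2866, 2973 and 2861 bp in DTR and 2910, 2199 and 2086 bp in WT. WT 1 was like the DTR libraries, and WT 2 and WT 3 were lower. The region with the highest lowest fold of all member regions (34248703 to 34249090), 2794 bp from H2-Ob, had folds of 9.52, 9.96 and 9.47 in DTR and 9.39, 9.83 and 9.49 in WT. Of all shared regions, 6.72% were higher on that measure.

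The low values at H2-Ob came from its promoter region (34238783 to 34240387). A single peak of 1595, 1568 and 1603 bp lay there in DTR and of 1559 bp in WT 1. WT 2 had a peak of 133 bp and, beyond a gap, one of 913 bp, and WT 3 had only one of 891 bp that began at 34239463, past the printed stretch. The folds did not follow the widths, at 5.63, 5.43 and 5.69 in DTR and 5.64, 5.68 and 6.16 in WT. Although every DTR length exceeded every WT length, the log2 difference in covered length of the region was 0.49 ± 0.21 (SE; limma, adjusted p = 0.680). That of the whole H2-Ob locus was 0.28 ± 0.13 (limma, adjusted p = 0.452). Leaving out 1 library at a time gave 0.19 (without WT 3, adjusted p = 0.632) to 0.42 (without WT 1, adjusted p = 0.0734).

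**Figure D2:**
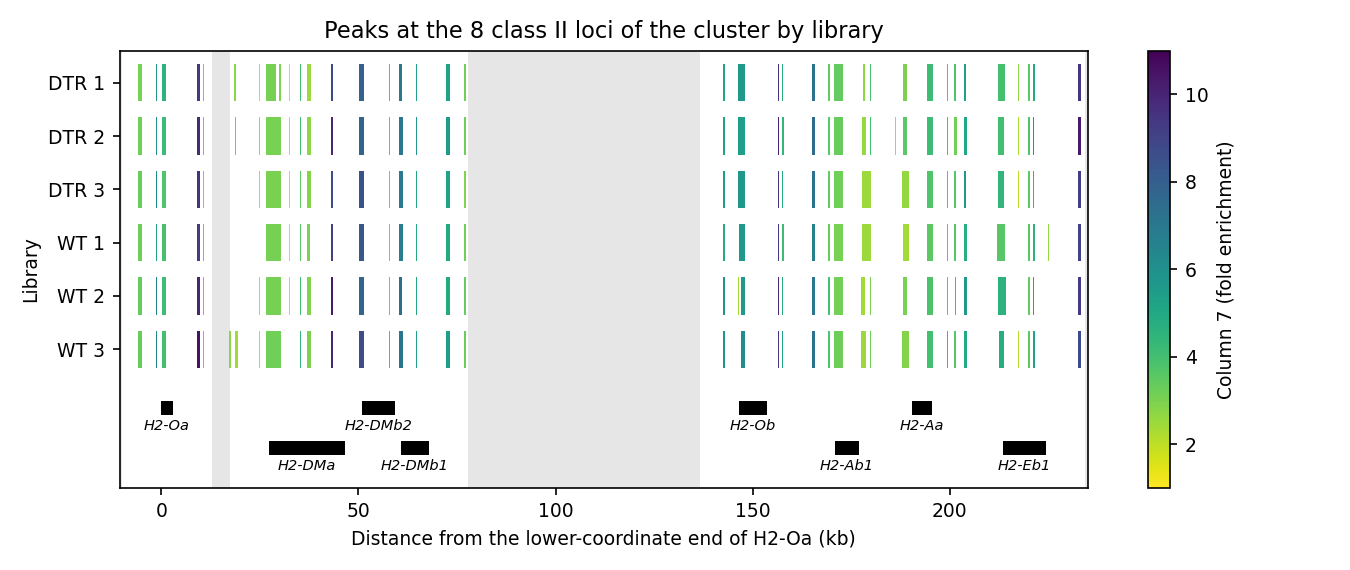
Peaks of the 6 libraries at the 8 H2 genes, placed by distance in kb from the lower-coordinate end of H2-Oa and coloured by fold enrichment. Gene bodies are drawn as black bars, and grey areas lie outside the windows and are not shown. The pattern of peaks repeats from library to library, and the H2-Ob promoter peaks of WT 2 (133 and 913 bp) and WT 3 (891 bp) are shorter than those of the other 4 libraries (1559 to 1603 bp).

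Cd74 was the member with the clearest separation of groups. Its locus had 6, 5 and 7 peaks in DTR and 5, 4 and 5 in WT, which overlap. Those peaks covered 5659, 6397 and 5980 bp in DTR and 5041, 4853 and 5078 bp in WT, and each DTR library lay above each WT library. Over all genes this held for 19.3%, and the reverse for 0.85%, so 1 of 10 members is not above the background. The log2 difference was 0.26 ± 0.056 (SE, n = 3 against 3), with an unadjusted limma p of 0.00429 and an adjusted p of 0.228, and the exact permutation p was 0.1. Without any 1 library it was 0.22 to 0.30 (limma). It was 0.082 with lists of equal length, 0.10 with peaks of a q-value of at most 1e-05 and 0.10 over the gene body alone.

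Most of the added length at Cd74 lay beyond the gene. A weak region (chromosome 18, 60812872 to 60816560), starting 219 bp past the higher-coordinate end of Cd74 and reaching into the body of Tcof1, a gene for a nucleolar protein, covered 1850, 2555 and 1991 bp in DTR and 1255, 1322 and 1396 bp in WT. All DTR values were above all WT values, as at 13% of all shared regions, and the log2 difference was 0.67 ± 0.13 (SE; limma, unadjusted p = 0.00371, adjusted p = 0.303). The folds there were low, at 2.12, 2.12 and 1.90 in DTR and 1.81, 1.95 and 1.97 in WT. Its peaks had a −log10 q of 1.18 to 4.46, so that at a q of at most 1e-05 the region had a peak in 0 libraries. With lists of equal length it had one in 5 libraries, DTR 1 having none. Without DTR 2, whose peak spans the gap left in other libraries, the difference fell to 0.036, since the region then splits.

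Inside Cd74, a narrow region had a peak in each DTR library and in no WT library (60808811 to 60808983). Its peaks were 160, 167 and 154 bp wide, with folds of 1.80, 1.84 and 1.61 and −log10 q of 10.3, 11.6 and 7.26. It was the only region of the loci found in all libraries of one group and none of the other, 1 of 58, against 0.82% of all 92757 regions. In the reverse direction there were 0 of 58, against 0.0992% of all. The region stayed DTR-only when peaks within 100 bp were merged, at a q of at most 1e-05 and with lists of equal length. Leaving out 1 library cannot change that state, so it is no check of this region. Without WT 3, regions inside Ciita (10516071 to 10516324) and H2-Eb1 (34309710 to 34309988) became DTR-only as well, for a count of 3, and without WT 2 a region near H2-DMa (34108893 to 34110069) became WT-only, for a count of 1.

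The main Cd74 peaks were alike in both groups. The widest, over the lower-coordinate end of the gene (60803382 to 60806240), covered 2782, 2806 and 2738 bp in DTR and 2830, 2747 and 2801 bp in WT, with folds of 2.73, 2.81 and 2.83 against 2.59, 2.93 and 2.85. The next region within the gene (60807058 to 60807581) had folds of 3.86, 4.23 and 3.82 in DTR and 3.45, 3.90 and 3.59 in WT, and WT 2 lay above DTR 1 and DTR 3 (log2 difference 0.12 ± 0.072 SE; limma, adjusted p = 0.620). A region 8355 bp from the gene (60795034 to 60795493) had the highest folds of the locus, 7.32, 7.26 and 6.52 in DTR and 6.08, 8.03 and 8.65 in WT. Of the 8 dendritic cell markers 0 passed the limma test, against 0.125% of genes with DTR higher. At an unadjusted p under 0.05 there was 1, Zbtb46, with DTR higher, against 11.4% of genes (limma), so the count is near the background. The median log2 difference of these 8 markers, 0.062, was below the 0.071 of all genes. The summed covered length of the dendritic cell markers, with 1 kb on either side, was 21298 to 21939 bp in DTR and 20070 to 20991 bp in WT, and 0 of 8 lacked a peak in every library. For the 7 B cell markers it was 4944 to 5859 bp and 4958 to 5599 bp, and 0 of 7 lacked a peak in every library. The sums of the non-classical monocyte (29474 to 30185 bp in DTR, 25948 to 29063 bp in WT), macrophage (10779 to 11093 bp, 9969 to 10729 bp) and megakaryocyte and platelet markers (4302 to 4461 bp, 3919 to 4267 bp) were also higher in each DTR library than in each WT library. Those of classical monocyte (24698 to 25615 bp, 22268 to 24779 bp), neutrophil (4283 to 5240 bp, 4117 to 4337 bp) and T and NK cell markers (3121 to 3301 bp, 3221 to 3320 bp) overlapped. The covered length of the whole lists was likewise higher in each DTR library (4.81e+07 to 5.01e+07 bp) than in each WT library (4.38e+07 to 4.77e+07 bp). Of all gene loci with 10 kb on either side, 19.3% had all DTR values above all WT values. The part of these markers in the result was not tested.

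**Figure D3:**
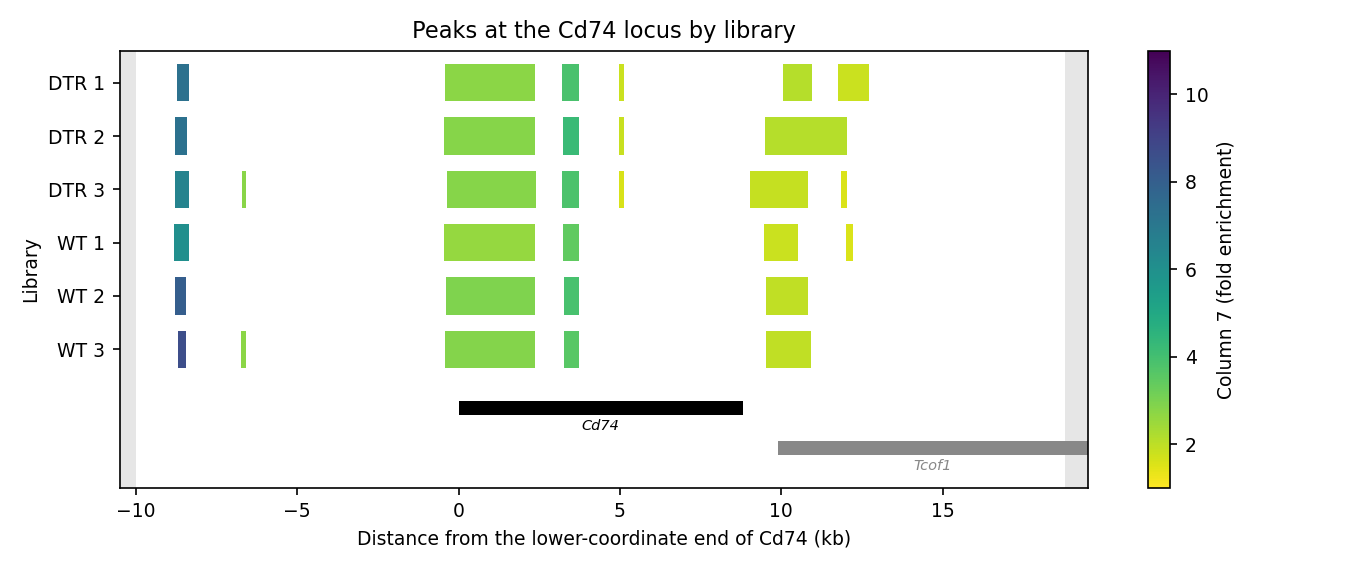
Peaks of the 6 libraries at Cd74, by distance in kb from its lower-coordinate end and coloured by fold enrichment, with the bodies of Cd74 (black) and Tcof1 (grey). The narrow peak near 5 kb is present in the 3 DTR libraries only, and the weak peaks beyond the gene cover 1850 to 2555 bp in DTR and 1255 to 1396 bp in WT.

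Ciita, the longest member, had 12 regions, of which 9 were present in every library. Its peaks numbered 10, 10 and 12 in DTR and 10, 9 and 10 in WT, and covered 5899, 5543 and 7243 bp in DTR and 5592, 5051 and 5508 bp in WT. DTR 3 was high and DTR 2 lay below WT 1. The log2 difference was 0.20 ± 0.11 (SE; limma, adjusted p = 0.507), and from 0.087 (without DTR 3) to 0.28 (without DTR 2) with 1 library left out. The region over the lower-coordinate end of the gene (chromosome 16, 10479721 to 10480272) had folds of 5.04, 4.93 and 4.66 in DTR and 5.0, 4.23 and 4.93 in WT. Within the gene, the widest region (10487769 to 10490061) covered 2277, 2080 and 2248 bp in DTR and 2114, 2079 and 2231 bp in WT. The RefSeq table used gives no exons, so these regions were not assigned to the known Ciita promoters.

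Within Ciita, 2 regions had folds that did not overlap between groups, as 10.4% of shared regions did with DTR above and 5.15% with DTR below. The first (10482280 to 10482723), the most open of the locus, had folds of 7.53, 7.73 and 8.23 in DTR and 6.80, 7.36 and 7.44 in WT (log2 difference 0.12 ± 0.065 SE; limma, adjusted p = 0.576). The second (10500569 to 10501051) had folds of 6.72, 6.62 and 6.39 in DTR and 5.36, 6.15 and 5.99 in WT, with WT 1 lowest. Its log2 difference was 0.18 ± 0.069 (SE; limma, unadjusted p = 0.0369, adjusted p = 0.432). At 2 other open regions within the gene the groups overlapped. One (10521176 to 10521534) had folds of 6.44, 7.60 and 6.12 in DTR and 5.82, 7.25 and 5.85 in WT, and the other (10522797 to 10523099) had 6.78, 7.21 and 8.24 in DTR and 5.80, 8.14 and 8.16 in WT.

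**Figure D4:**
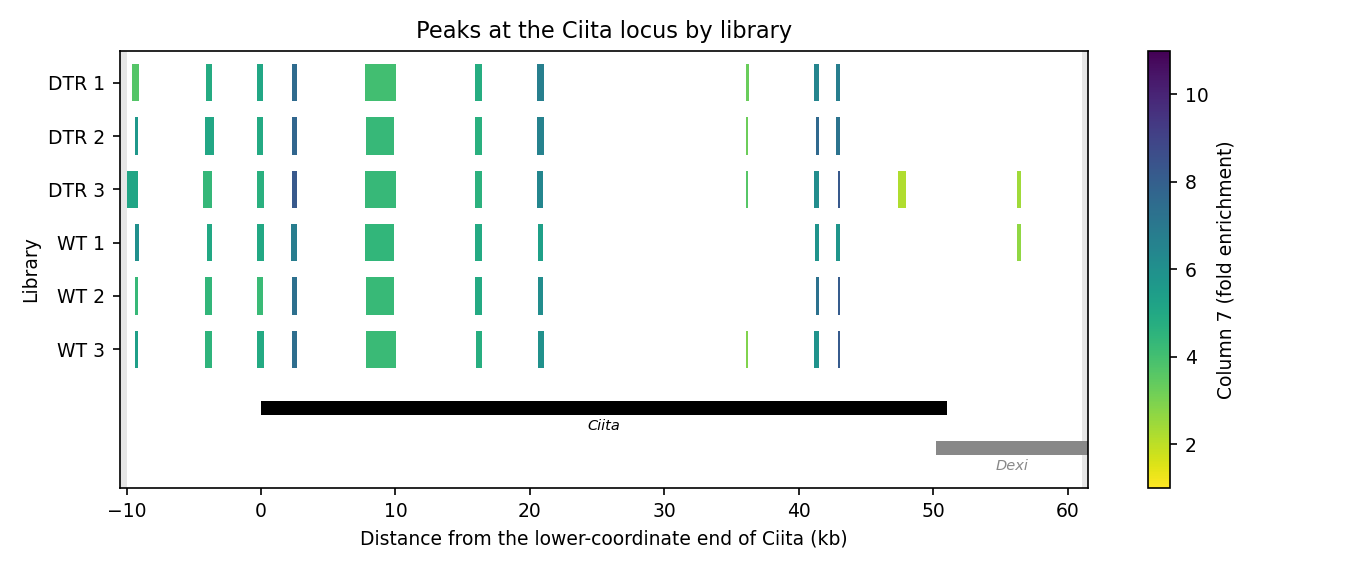
Peaks of the 6 libraries at Ciita, by distance in kb from its lower-coordinate end and coloured by fold enrichment, with the bodies of Ciita (black) and Dexi (grey). The 9 shared regions repeat in every library, and DTR 3 has 12 peaks against 9 or 10 in the WT libraries.

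Over all members, no difference in fold or length passed the test. In limma fits over 68712 shared regions, 0 of 47 member regions had an adjusted p under 0.05 for fold, with 1 at an unadjusted p under 0.05 (higher in DTR, in Ciita). Of all regions 0% passed for fold, and 7.88% and 2.72% had an unadjusted p under 0.05 with DTR higher and lower. For covered length 0 of 47 passed, with 2 at an unadjusted p under 0.05, both with DTR higher, in Cd74 and in H2-Eb1 (34312205 to 34312722). Of all regions 0.192% passed with DTR higher and 0.0233% with DTR lower, and 6.52% and 0.937% at the unadjusted level. Among gene loci 0 of 10 members passed, with 1 (Cd74) at the unadjusted level, against 0.125% of genes passing with DTR higher, 0.0178% with DTR lower and 11.4% and 0.41% at the unadjusted level with DTR higher and lower. The groups did not overlap in fold at 3 of 47 member regions with DTR above (against 10.4% of all) and 1 with DTR below (against 5.15%). In length they did not overlap at 5 with DTR above (against 13% of all) and 1 with DTR below (against 1.87%).

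The median log2 difference in fold was 0.012 over the 47 member regions, from −0.15 to 0.24, and 0.013 over all shared regions. For covered length it was 0.027, from −0.40 to 1.02, against 0.044. For gene loci it was 0.0079 over the 10 members, from −0.11 (H2-Ab1) to 0.28 (H2-Ob), against 0.071 over all genes, and 5 members lay on either side of zero. The largest differences in fold beside that in Ciita were in weak or variable regions: 0.24 ± 0.19 (SE) beyond H2-Ab1 (34269907 to 34272400), 0.16 ± 0.11 near H2-Oa (34104900 to 34105116) and 0.13 ± 0.13 near H2-Aa (34280285 to 34281986). The largest in length, 1.02 ± 0.45, was at the outer edge of the Ciita window (10470037 to 10470940), where peaks covered 491, 242 and 812 bp in DTR and 242, 237 and 202 bp in WT. DTR 2 equalled WT 1 there.

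**Figure D5:**
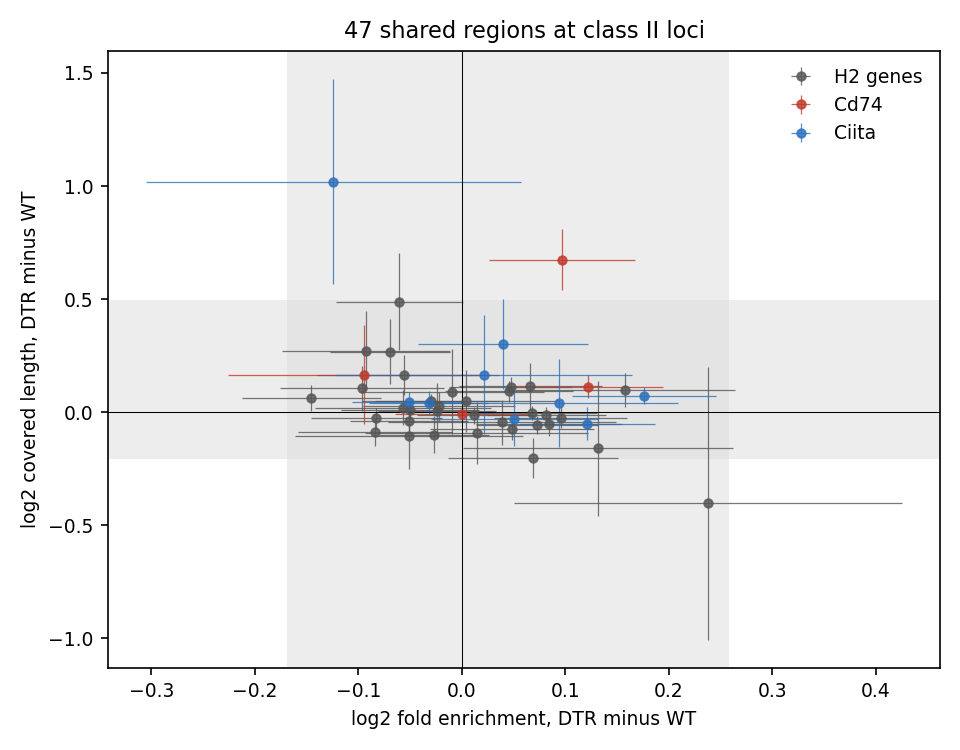
Difference in fold enrichment (x axis) and in covered length (y axis), both log2 and DTR minus WT, for the 47 regions with a peak in all libraries, with SE from limma as bars. Grey bands run from percentile 5 to percentile 95 of all 68712 shared regions. Of the 47, 44 lie within both bands, and the Cd74 region at 0.67 on the y axis is the weak one beyond the gene.

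Genes that act with the members did not pass the test either. Of 13 genes of class II transactivation (among them Rfx5, Rfxank and Rfxap, whose products bind the X box, and Nfya, Nfyb and Nfyc, which bind the Y box), 0 had an adjusted p under 0.05 for covered length in either direction (limma), with 2 at an unadjusted p under 0.05, both with DTR higher. Creb1, 1 of these, whose product binds the X2 part of the X box, had 2943, 3197 and 3748 bp in DTR and 2390, 2844 and 2699 bp in WT (log2 difference 0.30 ± 0.11 SE; limma, adjusted p = 0.392). Its lowest DTR value, DTR 1, lay above its highest WT value, WT 2. All DTR values lay above all WT values at 4 of the 13 genes, against 19.3% of all gene loci. They lay below at 0, against 0.85%. At an unadjusted limma p under 0.05, the shares of all gene loci were 11.4% with DTR higher and 0.41% with DTR lower. Rfx5, by contrast, differed by 0.034 ± 0.088 (SE), Rfxank by 0.11 ± 0.089 and Nfya by −0.031 ± 0.069.

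Of 10 genes of class II processing and trafficking, 0 passed in either direction (limma), and 1, Tmem176b, had an unadjusted p under 0.05 (0.12 ± 0.043 SE, adjusted p = 0.395). Ctss, the protease that trims Cd74, differed by 0.055 ± 0.035 (SE) and Marchf1, a ligase that removes class II from the surface, by 0.16 ± 0.068. Of 4 co-stimulation genes and 13 genes of class I presentation, 0 passed and 0 had an unadjusted p under 0.05. The share of all gene loci at that level with DTR higher was 11.4% (limma). All DTR values lay above all WT values at 5 of 10 processing, 0 of 4 co-stimulation and 3 of 13 class I genes, against 19.3% of all gene loci. They lay below at 1, 0 and 0, against 0.85%. The medians of these lists were 0.11 for transactivation, 0.098 for processing, −0.027 for co-stimulation and 0.085 for class I presentation, against 0.071 for all genes. The class II members and the class I genes were not compared by a test.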

How the data were processed

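The deposited data are 6 lists of broad ATAC-seq peaks, 1 per library, each from a single library. The submitters' processing notes name MACS2, fastp, Bowtie2 2.4.4 and Bowtie. The sources used here do not give parameters, any shift of reads for the transposase or the genome build. Each list gives the authors' score, a deposited fold (a ratio of signal to the background the caller assumed), as well as the −log10 of the p-value and q-value. Scores were not used. Printed peak positions start at 1 and keep the lists' own build. Gene bodies came from RefSeq for GRCm38.p6, in which 10 of 10 members matched. As a check of the build, a gene end lay within 100 bp of a shared region for 53.2%, 58.5% and 50.3% of genes on chromosomes 16, 17 and 18, and for 6.26% to 14.2% after moving the genes by 20 kb.

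A region's fold in a library was the highest of its peaks, and its covered length their summed width. The fits used limma (version 3.58.1 in R 4.3.3) with Benjamini-Hochberg adjustment over all features and a threshold of 0.05. Values per library were compared by a two-sided exact permutation test (scipy 1.17.1). The fit of fold was tested on simulated data, where a change of known size was seeded. That change was larger than any member difference in fold, so the run does not show that differences of the reported size would be found. The 10 members and all lists were chosen with earlier results of these data known. The rule for naming took all members, the 2 most open regions of each, group-only regions, and the 5 regions with the largest and the 5 with the smallest difference in fold. Regions set apart in length, and those on gene ends, were named after their values were seen. Alternatives were the gene body alone, only peaks with a q-value up to 1e-05, lists shortened to the length of the shortest by p-value, other pseudocounts, scalings and merging, each library left out, and a replicate block. Values of some listed genes are not reported here.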

Additional observations from a re-analysis of the deposited data

How the results depend on the processing

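Over 28 results and 15 settings, 283 alternative values were computed. Of these, 272 had the reported sign and test outcome or a similar count, 9 changed sign or fell to 0 and 2 counts moved. The exact permutation p cannot fall below 0.1 here, so the outcome of those tests could not change. The q setting for gene loci and the narrower motifs were chosen after the data were seen. In every setting run, 0 member regions and 0 member loci passed the limma threshold. With lists of equal length, which takes more peaks from the DTR lists, the differences at the loci were 0 peaks, −581 bp of covered length and 0.0084 in median fold, against 2.67, 1574 and −0.15 as reported. Over the gene bodies alone they were 2.67 peaks, 967 bp and −0.31 in median fold (exact permutation p = 0.1 each). The groups did not overlap on these measures. Median width differed by 14.7 bp there (exact permutation p = 0.6). At a q of at most 1e-05 the difference in peaks was 2.33 (exact permutation p = 0.1). With the gene body alone the log2 difference was 0.0095 at H2-Aa, 0.011 at H2-Ab1 and 0.019 at H2-Eb1, where the reported values were negative, and the cause was not tested. H2-Ab1 moved from −0.11 to −0.56 with lists of equal length (limma, adjusted p = 0.246) and H2-Aa from −0.077 to −0.25 with a q of at most 1e-05 (adjusted p = 0.595), while H2-Ab1 stood at −0.0078 there. Leaving out each library in turn gave −0.24 to 0.041 at H2-Ab1 (positive without DTR 1), −0.031 to 0.0070 at H2-Oa (positive without WT 1) and −0.082 to 0.044 at H2-DMa (positive without WT 3). DTR-only regions then numbered 1 to 3 and WT-only regions 0 to 1, since fewer libraries loosen the definition. Peaks differed by 2.17 to 3.67, covered length by 436 to 2570 bp, median width by 5.17 to 24.2 bp and median fold by −0.24 to −0.049. Libraries with the same number did not deviate together (correlations 0.0025, 0.074 and −0.032 in fold over 68712 regions). With a replicate block the difference in peaks was 2.67 (exact sign-flip permutation p = 0.25, the smallest it can give), Cd74 stood at 0.26 (limma, adjusted p = 0.382), and the block changed no call of a member. Depth is unknown, so peaks lost to shallow sequencing cannot be separated from closed chromatin.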
